A study of Homo sapiens with 16 samples.

Results

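RNA from pool A, one of 3 polysome pools of untreated MM1.S cells, was set against total RNA of the same untreated cell line. The comparison used 4 of the 16 Illumina bead arrays of the study, 2 of pool A and 2 of total RNA, and every gene that was detected well enough to be tested. MM1.S is a line grown from a human multiple myeloma, a cancer of the antibody-secreting plasma cell. The study exposed log-phase cultures of this line, kept in RPMI medium with serum, to 1 uM of the glucocorticoid dexamethasone for 0 or 4 h, and measured total RNA along with 3 pools of fractionated polysomes (A, B and C), with 2 arrays in each of 8 groups. The untreated groups are those at 0 h, and all groups come from this single line with no other genetic change named. The sources used here do not state which part of the sucrose gradient went into each pool, or that the 2 arrays of a group came from separate cultures, so that p-values measure the spread between these arrays, which may be technical.

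Ribosomes that translate an mRNA one behind another form a polysome, and in a sucrose gradient an mRNA with more ribosomes sediments further. The number of ribosomes on an mRNA depends on how often translation starts and on how long the coding sequence is. RNAs that are not translated, such as small nuclear and small nucleolar RNAs, travel in particles of their own size. A comparison of a pool with total RNA asks which RNAs were a larger or smaller share of that pool than of the RNA of the cell. Plasma cells translate many mRNAs for secreted and membrane proteins on ribosomes bound to the endoplasmic reticulum.

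On the 4 arrays, between 26.11% and 30.89% of the 47323 probes were detected, and median intensities lay between 143.2 and 159.4. The letters N and X name the arrays, from a column prefix that the sources used here do not explain. The N and X arrays correlated at 0.9659 across genes in pool A and at 0.9881 in total RNA, and the SD of their difference was 0.5807 and 0.3393 log2 units. Of 12 plasma cell markers, 11 were detected on both arrays of pool A and on both of total RNA. Of the markers of T cells, myeloid cells and fibroblasts, 0 were detected on any of the 4 arrays, and of 5 mature B cell markers 1 was detected on at least 1 of them. All levels below are normalized log2 intensities, and differences are pool A minus total RNA in log2 units with the standard error from limma. Every n is 2 arrays per group. Quantile normalization sets every difference against the other genes on the array, and the correction for background makes differences of dim genes too small.

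Pool A and total RNA differed in 4941 of the 10163 genes tested (48.6%, limma, Benjamini-Hochberg adjusted p under 0.05). Of these, 1899 genes (18.7%) were higher in pool A and 3042 (29.9%) lower. The number at an unadjusted p under 0.05 was 5606. Without the 4 untreated X arrays 1250 genes were higher and 1889 lower, and without the 4 untreated N arrays 1288 and 2080. Each of these fits left 1 array per untreated group, with the spread taken from the treated groups alone. The difference was over 2-fold for 1203 of the higher and 1855 of the lower genes, and over 4-fold for 189 and 223. The median over all genes was -0.19. With each array scaled on its median in place of quantile normalization, that median was -0.87 and the split became 546 higher and 5791 lower. In the deposited value table it was 1043 higher and 3222 lower. Higher genes made up 38.4% of the calls in the first case, 8.62% in the second and 24.5% in the third, so the share of RNAs above total RNA depends on the scale. Medians of gene groups below are differences from total RNA on the first scale unless said otherwise. Those of pool A are to be read against the -0.19 of all genes. In pools B and C the median of all genes was -0.11 and 0.06. The gene lists were written with earlier results of these data known, so none of them is independent evidence. The pool A arrays did not overlap the total RNA arrays for 1896 of the higher and 3039 of the lower calls. Of all genes called lower, 686 were detected on neither pool A array, and of those called higher, 215 were detected on neither total RNA array. With undetected genes at their lower bound in place of the fitted value, or at 0 where there was none, the median of all genes was near 0, and a group median moved by over 1.5 times for the targets of ATF4 (to -0.23), the ZNF genes (to 0.18), the selenoproteins (to 0.07), the cap-binding and mTORC1 genes (to -0.05) and the glucocorticoid receptor targets (to 0.03). Over all genes, non-overlapping arrays were found with pool A higher for 29.1% and with pool A lower for 44.2%.

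The strongest excess in pool A was among small RNAs that do not code for protein. SNORD96A, a box C/D RNA of the kind that guides 2'-O-methylation of ribosomal RNA, was at 12.27 (N) and 11.93 (X) in pool A and at 8.40 and 8.28 in total RNA, a difference of 3.76 ± 0.21 (13.5-fold, adjusted p = 7.05e-07, limma). RNY1, a Y RNA that binds the Ro60 protein, was at 9.24 and 8.94 in pool A against 5.71 and 5.59 in total RNA, a difference of 3.44 ± 0.20 (adjusted p = 7.05e-07). It was detected on 1 of the 2 total RNA arrays. OIP5-AS1, a long noncoding RNA, was at 11.55 on both pool A arrays and at 8.16 and 8.22 in total RNA, 3.36 ± 0.20 higher (10.3-fold, adjusted p = 7.05e-07). In these genes the arrays within a group lay within 0.4 of each other while the groups lay more than 3 apart.

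**Figure D1:**
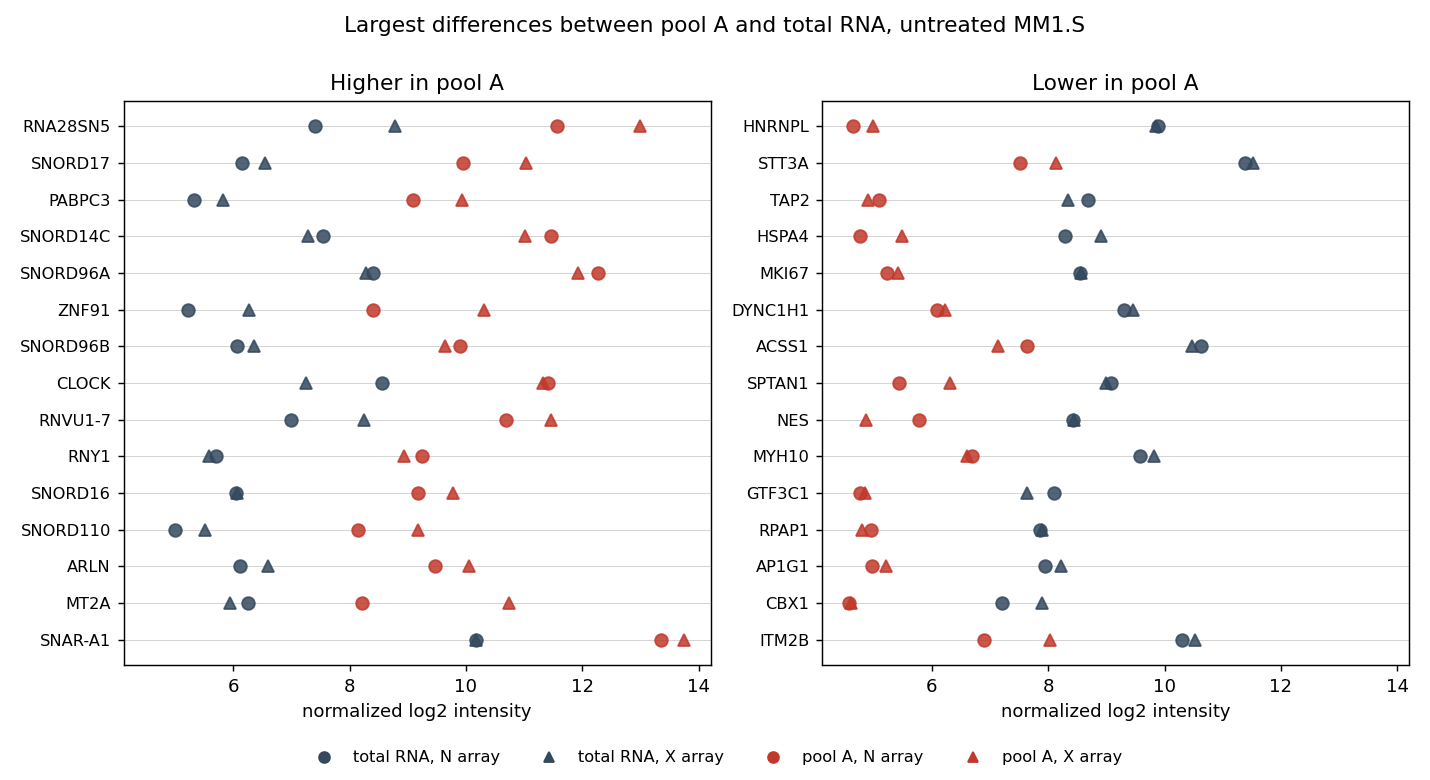
Normalized log2 intensity of the 15 genes with the largest positive and the 15 with the largest negative difference between untreated pool A and total RNA, ranked among called genes with non-overlapping arrays. Circles are N arrays and triangles X arrays. The groups are fully separated in all 30 genes because the ranking required it, from HNRNPL at -5.05 to RNA28SN5 at 4.18.

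Small nucleolar and Cajal body RNAs, which guide chemical modification of ribosomal and spliceosomal RNA, were higher in pool A for 86 of 122 tested members (70.5%) and lower for 3 (2.46%), with a median of 1.48. With median scaling 63 were higher and 9 lower with a median of 0.73, and 71 and 5 in the deposited value table with a median of 0.50, which were 1.61 and 0.67 above the median of all genes there. The box C/D class (SNORD) had 48 of 65 higher and 0 lower, with a median of 1.66, and the box H/ACA class (SNORA) had 35 of 49 higher and 2 lower, with a median of 1.45. Of 8 SCARNA genes 3 were higher and 1 lower. Within the list SNORD17 was highest at 4.15 ± 0.55 (adjusted p = 7.43e-05), followed by SNORD14C at 3.81 ± 0.25 (adjusted p = 1.28e-06). SNORD17 was at 9.96 and 11.03 in pool A and at 6.15 and 6.55 in total RNA. SNORD14C was at 11.46 and 11.01 against 7.55 and 7.29. The 3 members that were lower, named after their values were seen, were SNORA32 (-1.02, detected on 1 of 2 pool A arrays), SNORA25 (-0.85) and SCARNA10 (-0.62). SNORD96A and SNORD96B are near-identical copies that the probes may not separate. Most RNAs of this list lie within introns of other genes, and a probe in such an intron cannot tell the processed RNA from the unspliced host transcript.

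These RNAs were also higher in pool A than in the other 2 pools. The list had 98 of 122 members higher in pool A than in pool B, against 10.7% of all genes, and 105 higher than in pool C, against 21.4% of all genes. SNORD96A stood at 6.40 and 6.31 in pool B and at 5.11 and 5.67 in pool C, so pool A exceeded pool B by 5.75 ± 0.21 (adjusted p = 4.82e-09, limma). SNORD96A was detected on 1 of the 2 pool C arrays, where the fitted excess was 6.71 ± 0.21 (adjusted p = 6.27e-10). SNORD83B was at 11.70 and 11.09 in pool A, at 8.47 and 8.15 in total RNA, and between 4.93 and 5.98 in pools B and C. The medians of the list against total RNA were 1.48 in pool A, -0.73 in pool B and -0.96 in pool C, in comparisons that share the same total RNA arrays. In pools B and C, 71 and 93 of the 122 members were detected on neither array, so that those 2 medians rest largely on signals not above background. In total RNA 34 were detected on neither array, and in pool A 9. Of 301 such genes on the array only these 122 passed the filter on detection. Detection on 2 pool A arrays alone was enough to pass it, so the shares higher in pool A may be raised by that choice.

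Other structural RNAs of the nucleus and cytoplasm showed the same order. Of 23 tested members of that list, 18 were higher in pool A (78.3%) and 1 was lower. The medians were 2.68 in pool A, -0.27 in pool B and -0.61 in pool C, and 12 and 14 members were not detected in pools B and C. In total RNA 8 of the 23 were detected on neither array, and the limit of the filter holds here too. The pool A median was 1.99 with median scaling and 1.13 in the deposited value table, with the same counts in both. The genes annotated as small nuclear RNA, which take in the spliceosomal RNAs, RN7SK and SNAR-A1, numbered 12, of which 11 were higher, and their median was 3.07. RNU1-3, a gene for the U1 RNA that recognises 5' splice sites, was at 10.71 and 11.55 in pool A against 7.13 and 8.38 in total RNA (3.37 ± 0.54, adjusted p = 0.000297). Its copies RNU1-1, RNVU1-7 and RNVU1-18 share most of their sequence and cannot be told apart here. Both vault RNA genes and 3 of 4 Y RNA genes were higher, with medians of 3.15 and 2.64. RN7SK, which holds the elongation kinase P-TEFb inactive, was 3.01 higher, and RPPH1, the RNA of ribonuclease P, which was detected on neither total RNA array, at least 4.52-fold higher, both named after their values were seen. The member that was lower was the long noncoding RNA MIAT at -1.43.

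RNA28SN5, a copy of the 28S ribosomal RNA gene, had the largest positive difference of all genes, 4.18 ± 0.80 (adjusted p = 0.000859), but its probes and pools disagreed. The chosen probe was at 11.56 and 12.99 in pool A and at 7.41 and 8.77 in total RNA, while a second kept probe of RNA28SN5 differed by 0.37. It was nearly as high in pool B, at 11.35 and 11.59, and in pool C, at 11.21 and 11.81. The difference between pool A and either other pool did not pass (adjusted p = 0.493 against pool B and 0.435 against pool C). This probe was high in all 3 pools.

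**Figure D2:**
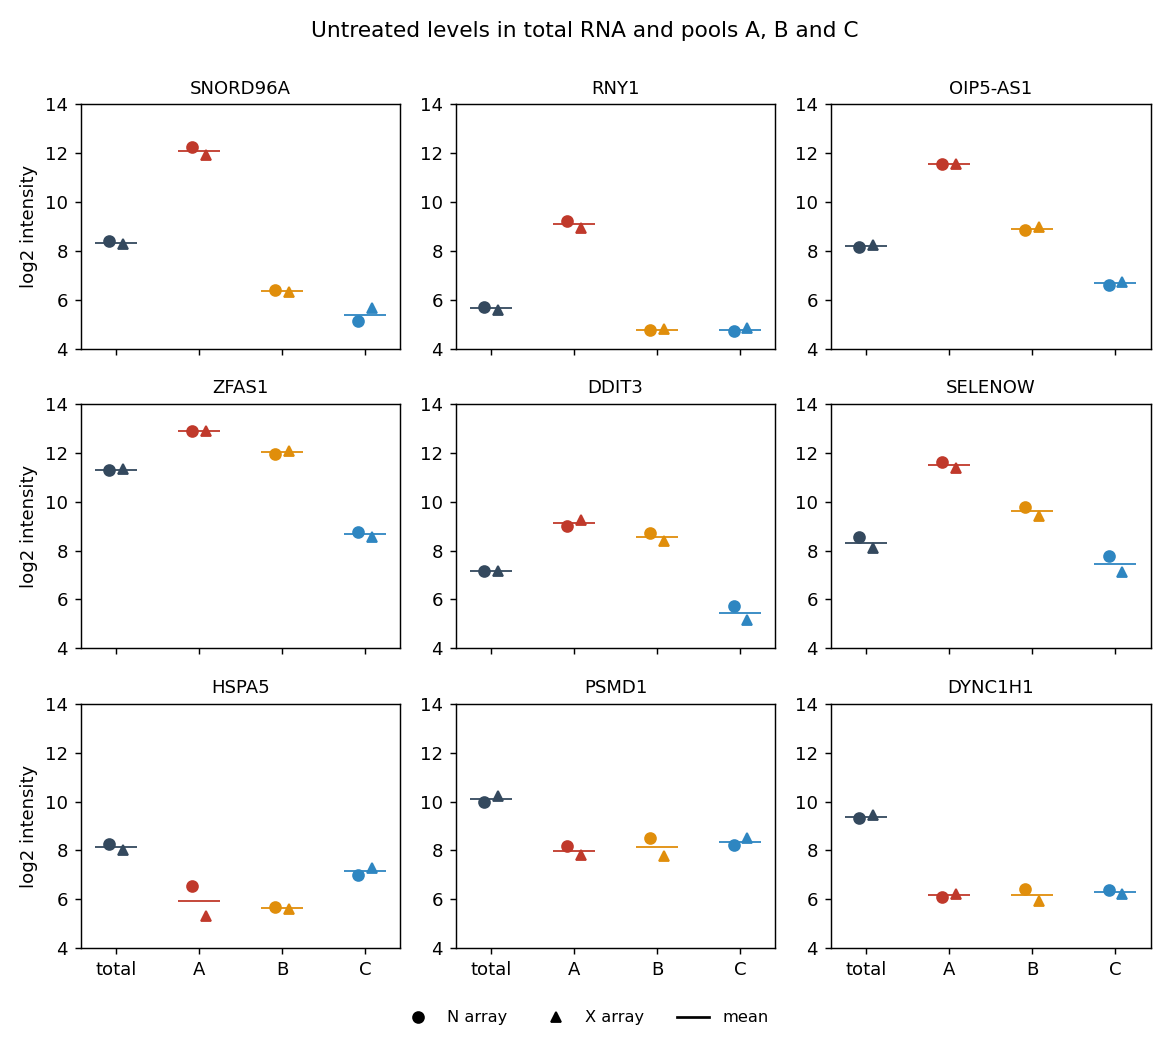
Normalized log2 intensity of 9 genes in total RNA and the 3 pools of untreated cells, with circles for N arrays, triangles for X arrays and a line for the mean of the 2. SNORD96A and RNY1 stand high in pool A alone, ZFAS1 and DDIT3 are high in pools A and B and low in pool C, and DYNC1H1 is low in all 3 pools at 5.94 to 6.43.

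Long noncoding RNAs were higher in pool A for 89 of 179 genes (49.7%) and lower for 15, with medians of 0.80 in pool A, 0.26 in pool B and -0.28 in pool C. Protein-coding genes, 9605 in number, had 1632 higher (17.0%) and 2994 lower (31.2%), with a median of -0.23. Among the transcripts that host small nucleolar RNAs in their introns, 12 of 15 were higher in pool A and 0 lower, with a median of 0.97. These spliced hosts carry little or no coding sequence and are known to be degraded by nonsense-mediated decay when ribosomes engage them. EPB41L4A-AS1 was at 12.77 and 12.69 in pool A and at 10.46 and 10.52 in total RNA, 2.24 ± 0.18 higher (4.73-fold, adjusted p = 3.93e-06, limma). CYTOR was 1.73 ± 0.22 higher (adjusted p = 5.63e-05) and SNHG8 1.53 ± 0.20 (adjusted p = 6.26e-05). That CYTOR is a host rests on the hand-written list alone and was not checked here. ZFAS1 was at 12.89 and 12.91 against 11.28 and 11.35, a difference of 1.58 ± 0.19 (adjusted p = 3.72e-05). ZFAS1 then fell off across the pools, to 11.97 and 12.10 in pool B and 8.77 and 8.56 in pool C. The list followed it, with medians against total RNA of 0.97, 0.65 and -2.04 in pools A, B and C. In it 13 of 15 members were higher in pool A than in pool C, against 21.4% of all genes.

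Several of these hosts start with the terminal oligopyrimidine tract that also opens ribosomal protein mRNAs, a C followed by a run of pyrimidines through which the kinase mTORC1 controls their translation. The tract was searched in RefSeq promoter windows of build GRCh38.p14 as a C at the annotated start followed by at least 4 bases that are C or T, on the strand of the gene. It was present in 4.07% of all 35116 entries and in 5.14% of 27305 genes. Of the 12 hosts with a window 4 held it, as did 26 of 35 large subunit and 17 of 23 small subunit ribosomal protein genes. The start windows of those 4 hosts and of the 2 ribosomal protein genes with the largest excess in pool A are shown so that the tracts can be compared. Each runs from 10 bases before the start to 20 from it, with the tract in capitals. The windows lie at chr6:85678714-85678743 on the minus strand for SNHG5, at chr1:28581854-28581883 on the minus strand for SNHG12, at chr6:31834906-31834935 on the plus strand for SNHG32 and at chr20:49278632-49278661 on the plus strand for ZFAS1. They lie at chr16:89560672-89560701 for RPL13 and at chr3:40457329-40457358 for RPL14, both on the plus strand.
SNHG5: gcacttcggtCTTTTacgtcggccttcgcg
SNHG12: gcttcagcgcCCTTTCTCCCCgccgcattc
SNHG32: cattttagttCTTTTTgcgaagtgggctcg
ZFAS1: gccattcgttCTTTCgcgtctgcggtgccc
RPL13: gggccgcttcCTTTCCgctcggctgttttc
RPL14: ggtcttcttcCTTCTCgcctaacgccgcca

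All 4 hosts with the tract were higher in pool A, SNHG5 by 0.73 ± 0.24 (adjusted p = 0.0215, limma), SNHG32 by 0.97 ± 0.18 (adjusted p = 0.000771), SNHG12 by 1.37 ± 0.30 (adjusted p = 0.00212) and ZFAS1 as above. Of the 8 hosts without it 5 were higher, so higher hosts were found with and without these letters at the start. Of the large subunit ribosomal protein genes, 6 of the 26 with the tract and 0 of the 9 without it were higher. Their medians were 0.01 and 0.06. Among small subunit genes, 1 of the 17 with it and 1 of the 6 without it were higher, with medians of -0.0042 and -0.03. Over all 8222 tested genes with a window, 630 held the tract (7.66%). Of these, 125 were higher and 170 lower, with a median of -0.11. Of the 7592 genes without it 1308 were higher and 2414 lower, with a median of -0.25.

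Most mRNAs of ribosomal proteins did not pass the test. Large subunit proteins had 10 of 42 higher and 0 lower with a median of 0.13, and small subunit proteins had 3 of 26 higher and 2 lower with a median of 0.03. RPL13 was at 11.64 and 11.91 in pool A and at 9.64 and 10.02 in total RNA, 1.94 ± 0.25 higher (adjusted p = 6.10e-05), and its second probe differed by 1.59. RPL14 was 1.70 ± 0.33 higher (adjusted p = 0.00106), with 1.31 on its second probe. RPS7 was lower by contrast, at 9.97 and 10.40 against 11.85 and 11.14 (-1.31 ± 0.27, adjusted p = 0.00139), and at -0.74 (adjusted p = 0.0993) without the 4 untreated N arrays. RPS2 was higher, at 13.91 and 13.99 against 12.64 and 12.95 (1.16 ± 0.23, adjusted p = 0.00117). Most members lay near 0 on this scale, above the median of all genes. The median for the large subunit was 0.20 with median scaling and 0.43 in the deposited value table, where 21 were higher and 1 lower. Relative to the median of all genes, the large subunit stood at 0.32, and at 1.08 and 0.61 under those alternatives, and the small subunit at 0.22, 0.97 and 0.53.

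Among translation factors 9 of 50 were higher and 19 lower (38.0%), with a median of -0.08. With median scaling 5 were higher and 29 lower with a median of -0.87. Relative to all genes the median was 0.12, 0.0048 with median scaling and -0.12 in the deposited value table, so its direction depends on the scale. EIF4G1, the scaffold of the cap-binding complex, was at 9.28 and 9.15 in pool A and at 11.90 and 11.79 in total RNA (-2.63 ± 0.29, adjusted p = 1.82e-05, limma), and its second probe gave -2.50. EIF3A, a subunit of the scaffold that brings the small ribosomal subunit to mRNA, was at -1.97 ± 0.29 (adjusted p = 0.000155), and its partner EIF3C, detected on neither pool A array, was at least 1.65-fold lower (adjusted p = 0.000237). PABPC1, the cytoplasmic poly(A)-binding protein that represses its own mRNA, went the other way, at 13.98 and 14.50 against 12.63 and 12.33 (1.76 ± 0.26, adjusted p = 0.000165). Its second probe gave 1.92, and PABPC1 was also above pool B by 2.09 and above pool C by 2.21 (adjusted p = 0.000118 and 1.33e-05). The intronless relative PABPC3 was 3.94 ± 0.35 higher (adjusted p = 6.53e-06) and detected on 1 of the 2 total RNA arrays, but the sequences are so alike that the probe may read PABPC1. The elongation factors EEF1A1 (0.07, adjusted p = 0.78) and EEF2 (-0.34, adjusted p = 0.378) and the cap-binding protein EIF4E (0.08, adjusted p = 0.822, detected on 1 array of each group) did not pass.

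**Figure D3:**
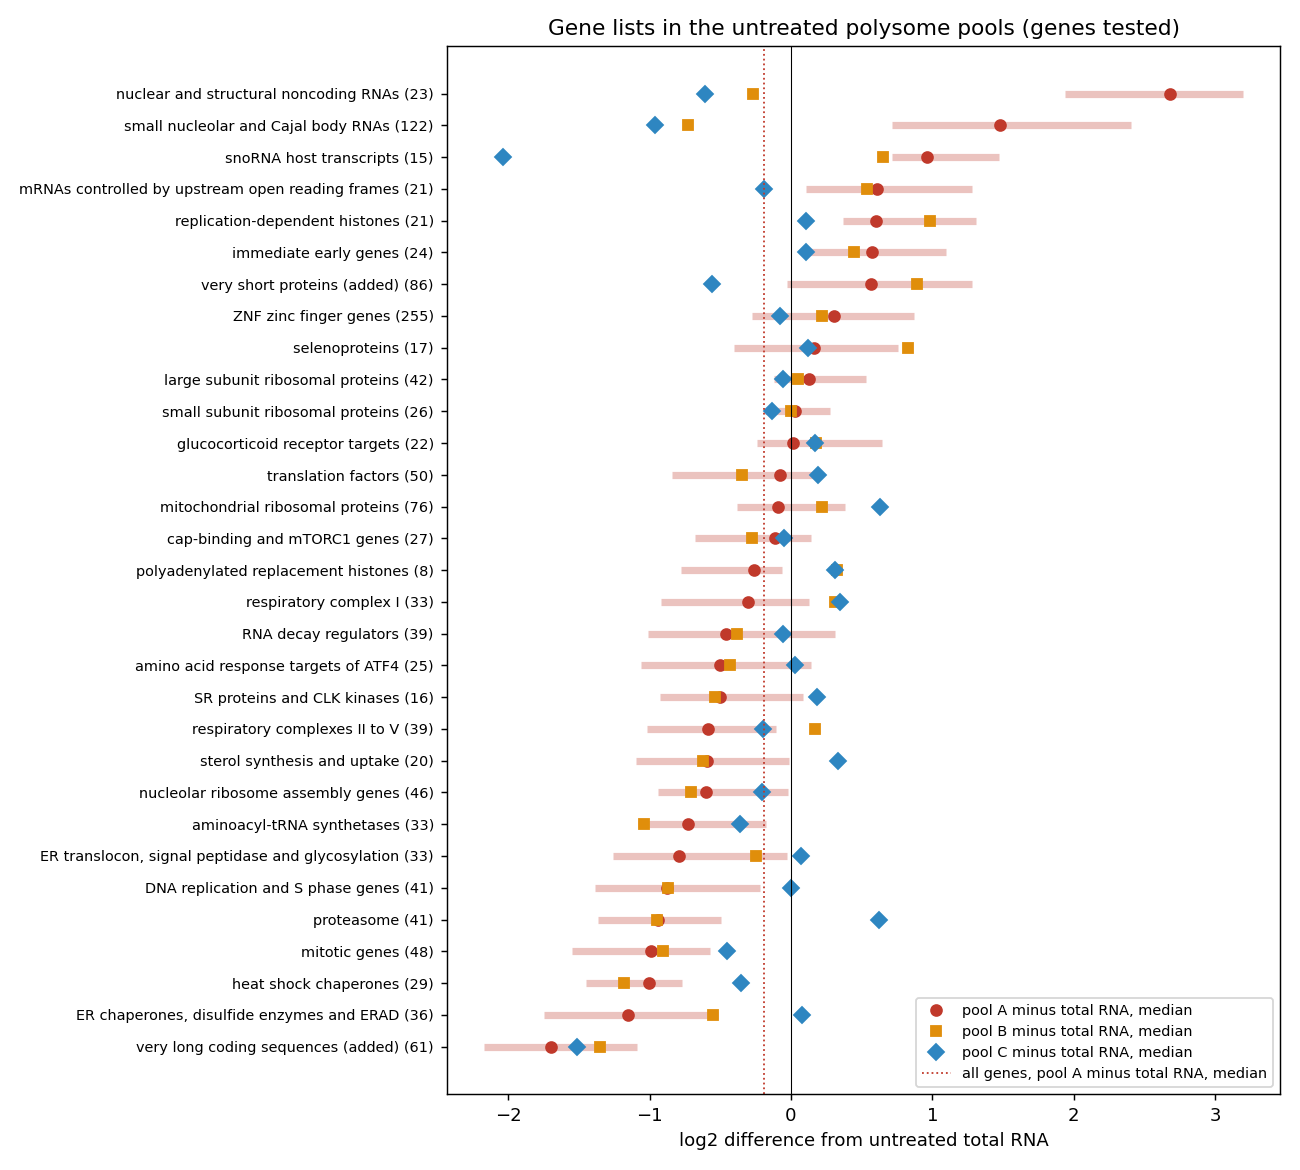
Median log2 difference from untreated total RNA of each gene list in pool A (circles), pool B (squares) and pool C (diamonds), ordered by pool A, with the number of tested genes in brackets. Bars span the quartiles for pool A and the dotted line is the median of all genes in pool A, -0.19. The medians of all genes in pools B and C, -0.11 and 0.06, are not drawn. All 3 pools use the same total RNA arrays. Noncoding RNA lists lie highest in pool A, between 0.97 and 2.68, and very long coding sequences lowest at -1.70.

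Genes of very long proteins, a hand-written list drawn up with results known and so no independent evidence, were lower in pool A for 52 of 61 tested members (85.2%) and higher for 0, with a median of -1.70. Detection failed on both pool A arrays for 15 of the 61, and with undetected genes at their bounds the median was -1.51. DYNC1H1, the heavy chain of cytoplasmic dynein, was at 6.09 and 6.22 in pool A and at 9.31 and 9.47 in total RNA (-3.23 ± 0.22, 9.38-fold lower, adjusted p = 1.50e-06, limma). SPTAN1, a spectrin chain, detected on 1 of the 2 pool A arrays, was at 5.43 and 6.31 against 9.07 and 8.99 (-3.16 ± 0.27, adjusted p = 4.69e-06), and MYH10, a nonmuscle myosin heavy chain, at 6.68 and 6.61 against 9.58 and 9.82 (-3.05 ± 0.28, adjusted p = 7.78e-06). These mRNAs were also low in the other pools, with medians of -1.35 in pool B and -1.51 in pool C for the list. DYNC1H1 differed between pools A and B by -0.03 (adjusted p = 0.942) and between A and C by -0.14 (adjusted p = 0.61).

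Genes of very short proteins, likewise written with results known, were higher for 43 of 86 members (50%) and lower for 8 (9.3%), with a median of 0.56. With median scaling 23 were higher and 11 lower with a median of 0.16, which was 1.03 above that of all genes, against 0.76 on the first scale. SELENOW, a small selenoprotein, was at 11.63 and 11.39 in pool A and at 8.56 and 8.09 in total RNA (3.18 ± 0.27, 9.09-fold, adjusted p = 4.73e-06). ARLN, a small membrane protein that regulates the calcium pump of the endoplasmic reticulum, was at 9.47 and 10.04 against 6.11 and 6.59 (3.40 ± 0.44, adjusted p = 6.14e-05). MT2A, a metal-binding metallothionein, was 3.38 ± 0.58 higher (adjusted p = 0.000461), with its pool A arrays 2.5 apart at 8.21 and 10.74. The list stood at 0.89 in pool B and at -0.56 in pool C. In it 62 of 86 members were higher in pool A than in pool C, against 21.4% of all genes. S100A6 passed at 2.63 ± 0.93 (adjusted p = 0.0312) through its X array alone, with 1 of 2 total RNA arrays above detection, at 6.23 and 10.63 against 5.71 and 5.88, and was at 0.43 (adjusted p = 0.479) without that array.

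The genomic span of a gene, introns included, was used as a coarse measure that needs no hand-written list. In the decile of protein-coding genes with the shortest span, 0.276 to 4.932 kb, 308 of 961 were higher (32.0%) and 139 lower (14.5%), with a median of 0.28 that turned to -0.24 with median scaling, 0.64 above that of all genes. In the decile with the longest span, 140.5 to 2299 kb, 77 of 961 were higher (8.01%) and 422 lower (43.9%), with a median of -0.54. Across the 9605 protein-coding genes, measured in the same libraries, the difference and the log10 span correlated at -0.24. Span is not transcript length, and genes are not independent replicates.

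**Figure D4:**
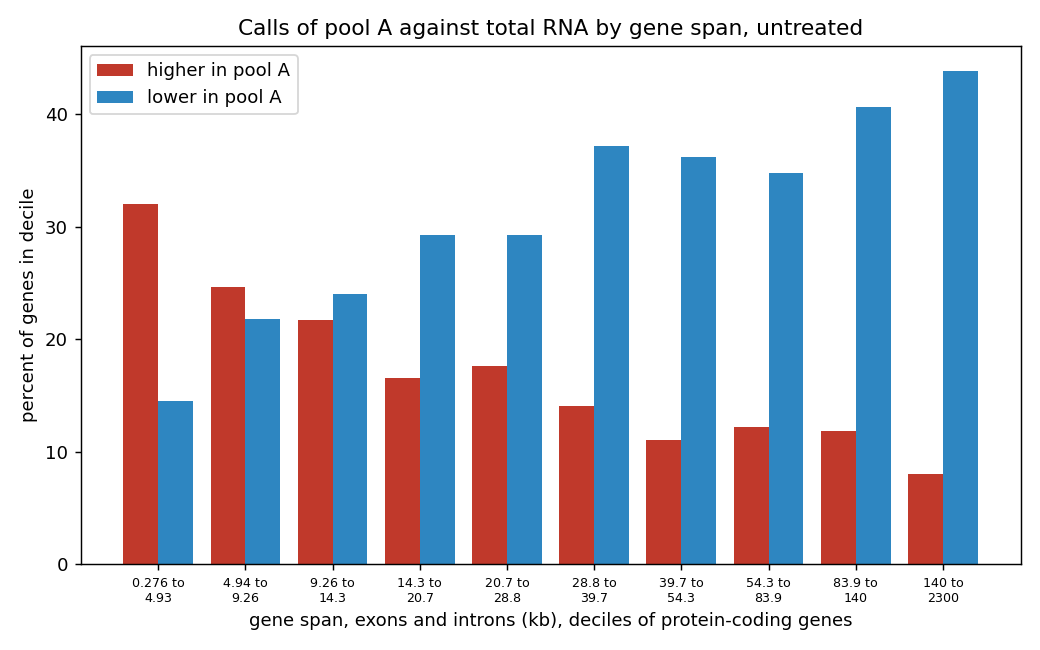
Percent of protein-coding genes higher (red) or lower (blue) in untreated pool A than in total RNA, in deciles of genomic span in kb. The share of higher genes goes from 32.0% in the shortest decile to 8.01% in the longest, and the share of lower genes from 14.5% to 43.9%.

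The largest fitted difference was that of HNRNPL, which binds CA-rich RNA in splicing. HNRNPL was at 4.64 and 4.99 in pool A, below detection on both arrays, and at 9.89 and 9.85 in total RNA, so it was at least 14.6-fold lower in pool A (fitted difference -5.05 ± 0.37, adjusted p = 1.83e-06, limma). Pools B and C held more of it, at 7.35 and 7.59 and at 8.56 and 8.69, still under total RNA. TAP2, a subunit of the peptide transporter for antigen presentation, was at least 5.71-fold lower (adjusted p = 2.13e-06), although its second probe differed by only -1.30. HSPA4, a heat shock protein that exchanges nucleotide on HSP70, was at least 6.04-fold lower (adjusted p = 1.04e-05), with -1.57 on a second probe. CBX1, a heterochromatin protein, was at least 2.93-fold lower than in total RNA (adjusted p = 3.06e-06). It was at 8.78 and 8.99 in pool C, above total RNA at 7.21 and 7.90.

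The mRNAs of the secretory pathway were lower in pool A. The list of the translocon, signal peptidase and glycosylation enzymes had 19 of 33 members lower (57.6%) and 3 higher, with a median of -0.79. STT3A, a catalytic subunit of the oligosaccharyltransferase, was at 7.51 and 8.14 in pool A and at 11.38 and 11.52 in total RNA (-3.62 ± 0.28, 12.3-fold lower, adjusted p = 2.27e-06, limma). SRP54, which binds signal sequences as they emerge from the ribosome, was at -2.67 ± 0.26 (adjusted p = 1.03e-05), and SPCS3, a subunit of signal peptidase, at -2.09 ± 0.28 (adjusted p = 6.81e-05). Chaperones, disulfide enzymes and degradation factors of the endoplasmic reticulum had 22 of 36 lower (61.1%) and 2 higher, with a median of -1.16. HSP90B1 (GRP94) was at 10.75 and 10.72 against 13.32 and 13.23 (-2.54 ± 0.23, adjusted p = 6.53e-06), and HYOU1, another chaperone there, was at -2.55 ± 0.21 (adjusted p = 4.45e-06). HSPA5 (BiP), detected on 1 of 2 pool A arrays, was at -2.22 ± 0.31 (adjusted p = 9.30e-05). Pool C was near total RNA for both lists, with medians of 0.07 and 0.08, and 24 of 33 and 25 of 36 members were lower in pool A than in pool C, against 34.2% of all genes.

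Of the 11 plasma cell markers tested, 6 were lower in pool A (54.5%) and 0 higher, with a median of -0.72. Without the 4 untreated X arrays 3 were lower and 1 higher. TNFRSF17, the surface receptor BCMA, was at 11.54 and 11.75 against 12.98 and 13.13 (-1.42 ± 0.20, adjusted p = 0.000107). JCHAIN, the joining chain of polymeric antibodies, was at 12.79 and 13.06 against 14.13 and 14.29 (-1.28 ± 0.19, adjusted p = 0.000165). The transcription factor IRF4 was at 10.42 and 10.14 against 11.39 and 11.17 (-0.998 ± 0.27, adjusted p = 0.00776), and it was at -0.86 (adjusted p = 0.0521) without the X array of pool A and at -0.89 (adjusted p = 0.058) without the N array of total RNA. XBP1, the factor of the unfolded protein response, was at -0.47 ± 0.20 and did not pass (adjusted p = 0.0609). MYC, another factor on which myeloma cells depend, was at 11.72 and 11.83 against 12.77 and 12.62 (-0.92 ± 0.20, adjusted p = 0.00224), with -0.94 on its second probe. Without the 4 untreated N arrays MYC was at -0.79 (adjusted p = 0.0605).

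The proteasome, which degrades ubiquitin-tagged proteins and is a drug target in myeloma, had 27 of 41 genes lower (65.9%) and 2 higher, with a median of -0.94. PSMB2, a core subunit, was at 10.44 and 10.43 in pool A and at 12.61 and 12.36 in total RNA (-2.05 ± 0.20, adjusted p = 8.47e-06, limma). PSMD1, a subunit of the regulatory cap, was at -2.11 ± 0.26 (adjusted p = 3.74e-05). The 2 genes that were higher, PSMG3 (1.93) and PSMG4 (0.91), named after their values were seen, are assembly chaperones of the proteasome. The list had a median of -0.95 in pool B and of 0.62 in pool C. In it 36 of 41 members were lower in pool A than in pool C, against 34.2% of all genes.

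Genes of cell division and DNA replication were lower as well. Mitotic genes had 33 of 48 lower (68.8%) and 1 higher, with a median of -0.99, and S phase genes had 24 of 41 lower (58.5%) and 0 higher, with a median of -0.87. MKI67, which coats mitotic chromosomes and is also on the list of very long coding sequences, was at 5.22 and 5.42 in pool A, below detection, and at 8.55 and 8.56 in total RNA, at least 5.86-fold lower (adjusted p = 1.83e-06). ASPM, a spindle pole protein, was at -2.67 ± 0.28 (adjusted p = 1.42e-05) and the spindle assembly factor TPX2 at -2.44 ± 0.22 (adjusted p = 6.93e-06). UHRF1, which guides maintenance of DNA methylation, was at 8.93 and 9.47 against 11.56 and 11.61 (-2.38 ± 0.35, adjusted p = 0.000145). The histone H3 variant gene CENPA was the 1 mitotic gene that was higher, by 0.77, and was named after its value was seen.

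Heat shock chaperones had 21 of 29 lower (72.4%) and 1 higher, with a median of -1.01, and HSP90AB1, the constitutive cytosolic HSP90, was at 11.12 and 11.07 against 13.46 and 13.11 (-2.19 ± 0.23, adjusted p = 1.45e-05, limma). The 1 that was higher was HSPB1 at 1.05, a small heat shock protein named after its value was seen. Aminoacyl-tRNA synthetases had 17 of 33 lower (51.5%) and 3 higher with a median of -0.73, led by IARS1 at -2.10 ± 0.24 (adjusted p = 2.54e-05). Nucleolar ribosome assembly genes had 22 of 46 lower (47.8%) and 5 higher with a median of -0.60, and nucleolin (NCL) was at 9.24 and 9.75 against 11.97 and 12.17 (-2.58 ± 0.26, adjusted p = 1.17e-05). Sterol genes had 10 of 20 lower (50%) and 2 higher with a median of -0.59, but 2 lower without the 4 untreated X arrays. Closer to the 29.9% of all genes were regulators of RNA decay with 15 of 39 lower (38.5%) and 4 higher, targets of ATF4 in the amino acid response with 10 of 25 lower (40%) and 4 higher, and SR proteins and their CLK kinases with 7 of 16 lower (43.8%) and 2 higher. Their medians were -0.46, -0.50 and -0.50. The cytoskeletal ACTB (-1.39 ± 0.21, adjusted p = 0.00019) and the glycolytic GAPDH (-0.88 ± 0.17, adjusted p = 0.000968), often used as references, were lower too, the second at -0.69 (adjusted p = 0.0559) without the 4 untreated N arrays.

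Mitochondrial genes were mixed. Mitochondrial ribosomal proteins had 11 of 76 higher and 10 lower with a median of -0.09, near that of all genes, whereas with median scaling 0 were higher and 49 lower. Relative to all genes that median was 0.10, -0.15 with median scaling and -0.24 in the deposited value table. Respiratory complex I had 5 of 33 higher and 12 lower (median -0.30), and complexes II to V had 7 of 39 higher and 20 lower (51.3%, median -0.59). Relative to all genes complex I was at -0.11 and turned to 0.15 with median scaling, and complexes II to V went from -0.39 to -0.0935. Within complex I, NDUFC1, one of its smallest subunits, was at 11.09 and 10.85 in pool A and at 8.78 and 8.46 in total RNA (2.35 ± 0.27, adjusted p = 2.70e-05, limma). NDUFV1, which carries the flavin, was at 10.51 and 9.99 against 12.07 and 11.84 (-1.70 ± 0.28, adjusted p = 0.000302). The catalytic ATP synthase subunit ATP5F1B was at 13.11 and 12.90 against 14.59 and 14.48 (-1.53 ± 0.18, adjusted p = 3.33e-05).

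Among mRNAs whose main coding sequence lies behind upstream open reading frames, many of which hold ribosomes back until a stress response, 11 of 21 were higher in pool A (52.4%) and 2 lower, with a median of 0.61. DDIT3 (CHOP), the stress-induced transcription factor, was at 9.0 and 9.24 in pool A and at 7.16 and 7.15 in total RNA (1.96 ± 0.24, 3.9-fold, adjusted p = 4.23e-05, limma). SLC35A4, whose upstream frame encodes a microprotein, was at 12.03 and 11.31 against 9.99 and 9.73 (1.81 ± 0.32, adjusted p = 0.000539). DDIT3 was lowest in pool C, at 5.75 and 5.15 and below detection on both arrays, at least 10.98-fold below pool A (adjusted p = 1.08e-07). In this list 13 of the 21 genes were lower in pool C than in pool A, against 21.4% of all genes. CLOCK, a circadian transcription factor, was 3.46 ± 0.32 higher (adjusted p = 7.19e-06), but its second probe differed by -0.91, so the probes of this gene disagree in direction. EPRS1, a large tRNA synthetase, was lower at -2.04 ± 0.24 (adjusted p = 2.69e-05). ATF4 itself was at 14.03 and 13.61 against 13.59 and 13.33 and did not pass (adjusted p = 0.322), whereas it exceeded pool C by 2.12 (adjusted p = 4.13e-05). The median of this list was -0.06 with median scaling, with 5 higher and 5 lower, and 0.82 above the median of all genes on that scale. In the deposited value table it was 0.28, with 6 higher and 2 lower.

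Immediate early genes, which cells transcribe within minutes of a stimulus into short-lived mRNAs, had 10 of 24 higher (41.7%) and 2 lower, with a median of 0.58 that was 0.37 on the N arrays and 0.87 on the X arrays. ZFP36, which speeds decay of AU-rich mRNAs, was at 11.11 and 11.49 in pool A and at 9.55 and 9.54 in total RNA (1.76 ± 0.26, adjusted p = 0.000145). JUN, a subunit of AP-1, was at 9.13 and 8.62 against 7.60 and 7.02 (1.56 ± 0.29, adjusted p = 0.000766), and at 5.89 and 5.53 in pool B. JUN did not pass with median scaling (0.50, adjusted p = 0.174). On that scale the list had 2 higher and 7 lower and a median of -0.27, which was 0.60 above the median of all genes. In the deposited value table it was 0.13, with 6 higher and 2 lower.

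Zinc finger genes of the ZNF family, many of them transcriptional repressors, had 80 of 255 higher (31.4%) and 29 lower (11.4%), with a median of 0.30. ZNF91 was at 8.40 and 10.31 against 5.22 and 6.27 (3.61 ± 0.60, adjusted p = 0.000358, limma), and ZNF688 at 8.16 and 7.88 against 5.82 and 5.79 (2.22 ± 0.25, adjusted p = 2.12e-05), both detected on 1 of 2 total RNA arrays. ZNF407 was the furthest below total RNA, at 5.47 and 5.21 against 8.12 and 8.02, at least 4.2-fold lower (adjusted p = 8.47e-06). With median scaling 12 were higher and 83 lower and the median was -0.36, 0.52 above that of all genes, and with 35 higher and 25 lower in the deposited value table the median was 0.09. Members of this family share zinc finger sequence, which probes may not always separate.

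Replication-dependent histones, whose mRNAs end in a stem-loop instead of a poly(A) tail, had 9 of 21 tested members higher (42.9%) and 0 lower, with medians of 0.60 in pool A, 0.99 in pool B and 0.11 in pool C. Detection failed on both arrays for 8 of the 21 in pool A, 8 in total RNA, 2 in pool B and 7 in pool C, so these medians rest partly on background signal. With undetected genes at their bounds the pool A median was 0.48. With median scaling, and likewise in the deposited value table, 4 were higher. H2AC20 was at 8.88 and 9.08 in pool A and at 7.11 and 7.15 in total RNA (1.85 ± 0.21, adjusted p = 2.05e-05). Of 69 such genes on the array 48 did not pass the filter on detection, and the copies resemble each other closely. Polyadenylated replacement histones had 1 of 8 higher (12.5%) and 3 lower (37.5%), near the shares of all genes, among them MACROH2A1 at 12.50 and 12.36 against 13.80 and 13.84 (-1.39 ± 0.18, adjusted p = 6.61e-05). H2AZ1 was at -0.92 ± 0.17 (adjusted p = 0.000754).

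The lists that follow were small or had calls in both directions. Over all genes, 18.7% were higher and 29.9% lower. Selenoproteins had 4 of 17 higher and 3 lower, with a median of 0.16 that was -0.39 on the N arrays, 0.27 on the X arrays and -0.54 with median scaling. Of 4 metallothioneins tested, out of 10 on the array, 3 were higher, against 2 with median scaling and 2 in the deposited value table. Detection failed on both total RNA arrays for 2 of the 4. Genes of the cap-binding complex and mTORC1 had 4 of 27 higher and 8 lower, with a median of -0.11 that was 0.0821 above that of all genes and at -0.0486 from it in the deposited value table. Known targets of the glucocorticoid receptor had 5 of 22 higher and 3 lower with a median of 0.01, which was 0.22 on the N arrays, -0.17 on the X arrays, -0.56 with median scaling and -0.05 in the deposited value table. TSC22D3, the glucocorticoid-induced leucine zipper, was at 10.15 (N) and 11.74 (X) in pool A and at 10.00 and 12.38 in total RNA, and differed by -0.24 ± 0.82 (adjusted p = 0.823, limma). DDIT4, an inhibitor of mTORC1, was at 10.07 and 12.71 against 9.84 and 13.03 (-0.04 ± 1.10, adjusted p = 0.98). In both genes the N and X arrays lay further apart than pool A and total RNA.

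The same comparison after 4 h of dexamethasone used 4 other arrays. All 16 arrays were normalized together and gave each gene 1 estimate of spread for both comparisons, so the overlap of calls is not independent evidence. There, 1903 genes (18.7%) were higher in pool A and 2762 (27.2%) lower. Of the genes higher in untreated cells, 1491 were higher at 4 h, which was 78.5% of the untreated and 78.3% of the treated list. Of the lower genes 2397 were lower at 4 h, 78.8% of the untreated and 86.8% of the treated list. Calls in opposite directions numbered 2 and 3, and 4861 of the 4941 called genes had the same sign. Across genes, which are not independent replicates, the differences at 0 h and 4 h correlated at 0.91. HNRNPL was at -5.09 at 4 h, SNORD96A at 3.86, OIP5-AS1 at 3.29 and STT3A at -3.53, each less than 1 standard error from its untreated value. The difference between the 4 h and the untreated comparison passed for 0 genes in limma, with 410 at an unadjusted p under 0.05, where 5% of the genes tested would be 508. That number was 16 without the N array of untreated pool A and 8 without the 4 untreated N arrays.

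**Figure D5:**
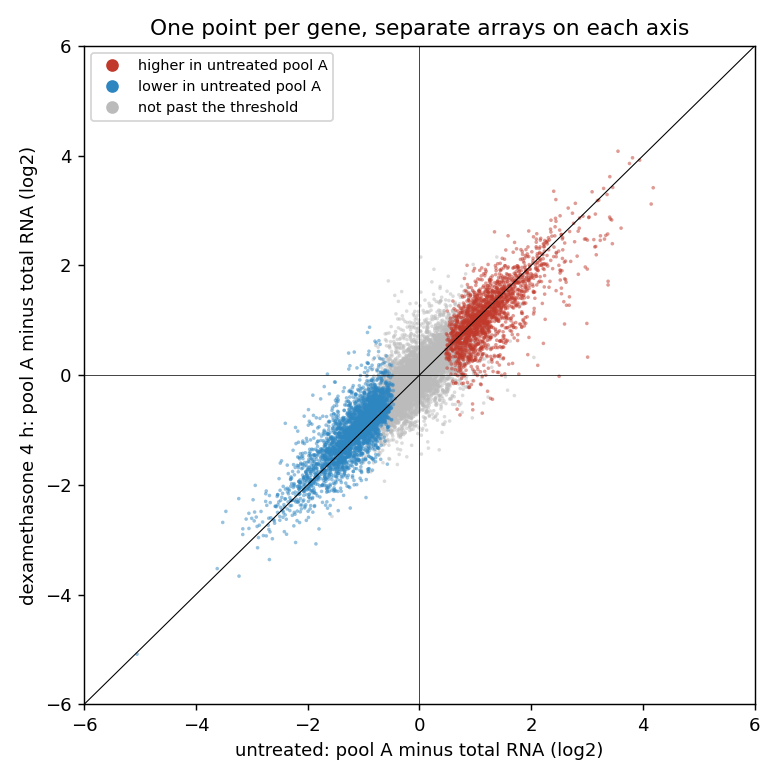
Log2 difference of pool A from total RNA in untreated cells (x axis) and after 4 h of dexamethasone (y axis), one point per gene, on separate arrays. Genes higher in untreated pool A are red, lower genes blue and the others grey; the line marks equal differences. Points follow the line, with a correlation of 0.91 across genes.

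Set against the other untreated pools, pool A differed from B in fewer genes than from C. It was higher than pool B in 1087 genes (10.7%) and lower in 1446 (14.2%), and it was higher than pool C in 2173 (21.4%) and lower in 3472 (34.2%), calls for 24.9% and 55.5% of all genes. Of 2533 calls in all, the number was 865 with the untreated N arrays alone, 1291 with the untreated X arrays alone and 727 in a fit of the 2 pools alone, while it was 3806 with median scaling and 1370 in the deposited value table. Both other pools also had called differences from the shared total RNA arrays, with 1852 higher (18.2%) and 2505 lower (24.6%) in pool B and 1428 higher (14.1%) and 1546 lower (15.2%) in pool C. The largest deficit of pool A against pool B was that of NUTF2, a transport factor of the nuclear pore, at 7.36 and 7.40 in pool A and 10.52 and 10.47 in pool B (-3.12, adjusted p = 4.91e-05, limma). NUTF2 was at 8.94 and 8.88 in total RNA. AP1S1, an adaptor subunit of clathrin coats, was at 5.20 and 5.69 in pool A and above 7.8 on every array of the other untreated groups. Its deficit against total RNA was at least 3.83-fold (adjusted p = 7.79e-05).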

How the data were processed

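The deposited non-normalized table gives, per the file headers, linear intensities and detection p-values for each probe on each array. The deposited value table holds log2 values of the same samples, whose normalization and centring by the authors are unknown. Its columns had medians of 7.336 and 7.348 in untreated pool A and of 7.21 and 7.211 in untreated total RNA. It served as an alternative.

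Intensities of all 16 arrays were background-corrected with nec of limma 3.58.1 in R 4.3.3 (offset 16), quantile-normalized and put on a log2 scale. Probes with a detection p-value under 0.01 on at least 2 arrays were kept (17269). Of the 47323 probes, 30113 had 1 annotated symbol, 8 several and 17202 none, and 30074 matched the reference gene table. Each gene was represented by its brightest probe on average, and 2550 of 10163 genes had more than 1 kept probe. Of 1316 called genes with a second probe, 87.5% had the same sign on it.

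Means of the 8 groups were fitted together with limma (8 residual and 5.36 prior degrees of freedom), with Benjamini-Hochberg adjustment over all genes. The number of arrays limits the precision. A gene detected on no array of a group has a fold of at least the brighter group over, per array, the higher of the lowest detected signal and its own. The top 15 genes each way, up to 4 members of each list, the top 4 each way against pools B and C and a fixed set were eligible to be named. The part of that rule on protein length was not applied, and mitochondrially encoded genes were not analysed here. Members, lists and rules were chosen with earlier results of these data known. The method was tested on simulated data.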

Additional observations from a re-analysis of the deposited data

Results flagged for a closer look

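Of the kept probes, 3980 had no single gene symbol and took part in none of the comparisons above. Tested in the same way with limma, 1134 of them (28.5%) were higher in pool A than in total RNA and 629 (15.8%) lower, with a median of 0.22. The named genes had 18.7% higher and 29.9% lower with a median of -0.19. These probes held a signal that the comparisons of genes leave out. What RNAs they measure was not tested.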

How the results depend on the processing

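Median scaling gave 546 genes higher and 5791 lower against total RNA and 3806 calls against pool B. Of the 1899 and 3042 genes of the main comparison, 536 and 3035 were among them. It also turned H2AJ to -0.30, MSRB1 to -0.0175, MT1X to -0.10 and EIF4EBP1 to -0.0423. The deposited value table gave 1043 higher and 1370 calls against pool B, and a fit of the compared groups alone 727. Without the 4 untreated X arrays there were 1250 higher, 1889 lower and 865 calls against pool B, and without the 4 untreated N arrays 1291 against pool B and 8 genes that differed between 4 h and 0 h. Leaving out 1 array at a time gave 1348 to 1712 higher, 2269 to 2736 lower, 3331 to 3717 calls at 4 h, 1863 to 2177 against pool B and 4372 to 5173 against pool C. The difference between 4 h and 0 h then passed for 0 to 16 genes, the 16 without the N array of untreated pool A. The selenoprotein median relative to all genes ranged from -0.0054 (without the X array of pool A) to 0.56 with 1 array left out, and was -0.21 without the untreated X arrays and -0.37 on the second brightest probe, an alternative chosen after seeing the data. The cause of these changes was not tested. A replicate block on the column prefix gave 2171 higher and 3425 lower, with all 1899 and 3042 among them, and the replicate number in the deposited value table gave 1269 and 3791. Deviations of pool A and total RNA arrays with the same prefix correlated at 0.28, and 27 of 28 pairs of groups were over 0.1, with a range from -0.08 to 0.40. Same-prefix arrays thus deviated together in all but 1 pair of groups, but the sources used here do not say that the prefix marks a shared culture or day, so the block stayed an alternative. Over the alternatives, the call of named genes was unchanged in 2661 values, lost in 87 and gained in 16. Another 4 values, those turned by median scaling, changed direction with a call in either fit. A gene called in neither fit was counted as unchanged even where its sign differed. Low signal limits the genes detected in only 1 group, for which a fold is a lower bound.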
